A study of Mus musculus with 19 samples.

Results

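The 9 homeostatic microglia genes described here are Tmem119, P2ry12, Cx3cr1, Gpr34, Csf1r, Fcrls, Siglech, Selplg and Olfml3. They were chosen by name, and all 9 were found in each of the 3 deposited tables when letter case was ignored, among 3067 genes measured in microglia, 3776 in monocytes and 6376 in astrocytes. Each table covers cells that were sorted by flow cytometry from the central nervous system of single mice, and 19 libraries were read in all: 3 shXbp1 and 4 shScrmbl libraries of microglia, 2 and 2 of monocytes, and 4 and 4 of astrocytes. Every mouse was a wild-type C57Bl/6 female at postnatal day 85 in which EAE (experimental autoimmune encephalomyelitis, an inflammatory disease of myelin used as a model of multiple sclerosis) had been set off by injecting 25 µg of MOG35-55, a peptide of myelin, in the adjuvant CFA. Before that, shXbp1 mice had received pLenti-Gfap-GFP-shXbp1 into the brain, a lentivirus whose Gfap promoter, active in astrocytes, drives GFP and a hairpin against Xbp1, and shScrmbl mice had received pLenti-Gfap-GFP-shScramble. No group without EAE and none without virus was analysed here, and the labels do not name the antibodies of the sort or say whether GFP was used in it.

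Microglia are the resident macrophages of the brain and spinal cord, and in the undisturbed adult they keep up a characteristic set of surface receptors and secreted proteins. The set depends on survival signals through the receptor CSF1R and on TGF-beta, and it is known to be turned down when microglia are activated, as in EAE. Blood monocytes that enter the inflamed tissue resemble microglia in many respects but make little Tmem119, P2ry12, Fcrls or Siglech, while Csf1r, Cx3cr1 and Selplg are also known from monocytes. Astrocytes are not of the myeloid lineage and are not known to make these transcripts in quantity.

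RefSeq promoters on GRCm38.p6 were matched for 5 of the 9 genes, namely Cx3cr1, Fcrls, Olfml3, P2ry12 and Siglech. The letters AGGAAGT, a core that PU.1 and other ETS factors are known to bind, were searched on both strands of the 250 bases before each RefSeq start. RefSeq and GENCODE do not place every start alike. The windows of Fcrls and Siglech lie partly, and that of Cx3cr1 wholly, inside the GENCODE gene positions given further on. P2ry12 is shown because it is one of 2 of the 5 that hold these letters (the other is Fcrls, 75 bases before its RefSeq start), and because it had the highest level in microglia relative to astrocytes. In the P2ry12 window, given 5′ to 3′ on the minus strand at chr3:59262986-59263235, the match is in capitals and begins 52 bases before the start.
P2ry12: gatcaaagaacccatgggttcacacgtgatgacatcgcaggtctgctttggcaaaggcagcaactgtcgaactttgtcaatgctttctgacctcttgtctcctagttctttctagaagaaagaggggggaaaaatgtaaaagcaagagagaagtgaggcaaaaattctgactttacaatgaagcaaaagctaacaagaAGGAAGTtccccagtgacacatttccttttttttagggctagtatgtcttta
The same letters occur in 7.69% of 32851 mouse promoter windows of that length. The longer form GAGGAAGT, which contains AGGAAGT, was in none of the 5 windows and in 2.44% of all windows. A match is a description of the letters and not a measured binding site.

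On the mouse genome build GRCm38 (GENCODE M21) the genes are spread over several chromosomes, with one pair of neighbours. Tmem119 lies at chr5:113793729-113800516 and Selplg at chr5:113818536-113832644, both on the minus strand and 18019 bases apart. Chromosome 3 holds P2ry12 (chr3:59216272-59262871), Fcrls (chr3:87250758-87263738) and Olfml3 (chr3:103722222-103738001), all on the minus strand. Cx3cr1 lies at chr9:119901616-120069879 on the minus strand, Siglech at chr7:55768178-55778925, Gpr34 at chrX:13632089-13640858 and Csf1r at chr18:61100598-61132149, the last 3 on the plus strand. P2ry12, Gpr34, Csf1r and Cx3cr1 overlap other annotated genes (Med12l, Cask, Hmgxb3 and several genes inside the long Cx3cr1 model), and whether counting used the strand is not given in the sources used here, so reads of such neighbours cannot be told apart from theirs.

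Depth was low and uneven, and it limits every value given here. Libraries held 10039 to 122002 counts in microglia, 15654 to 112676 in monocytes and 32842 to 302003 in astrocytes, and 3′ digital gene expression counts transcript ends, so that levels of different genes were compared as counts per 1000000 counts of the library (CPM) without a length correction. Within a cell type, values by virus are given as the deposited normalized signal, in which 1 count was worth 4.22 to 76.0 depending on the library, and differences are shXbp1 minus shScrmbl. In the astrocyte libraries, Xbp1 itself had a normalized signal of 34.1, 52.9, 31.2 and 79.7 with shXbp1, against 20.1, 71.7, 79.9 and 27.6 with shScrmbl (1 to 17 counts a library), and its log2 difference of 0.12 had a 95% limma interval from -1.33 to 1.57. The sorted types were checked against their own markers: 16 astrocyte markers summed to 1864 to 3605 CPM in astrocyte libraries, far below 9 choroid plexus markers at 168376 to 307469 CPM, of which Ttr made up most. Of the monocyte and macrophage markers, 20 summed to 10477 to 26312 CPM in monocyte libraries and 18 to 3984 to 24568 CPM in microglia libraries. In microglia, Lyz2 (lysozyme) gave 274 of the 414 marker counts with shXbp1 and 3258 of the 4763 with shScrmbl. The defining monocyte markers Ly6c2 and Ccr2 averaged 38.9 and 56.4 CPM in microglia, against 255 and 249 CPM in monocytes. Gfap, and the border macrophage markers Mrc1, Cd163 and Lyve1 in microglia and astrocytes, were not analysed here.

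The 9 genes were most abundant in sorted microglia, present at a lower level in sorted monocytes, and lowest but still counted in every sorted astrocyte library. Summed, they made up 6581 ± 2690 CPM in microglia (SD, n = 7 libraries, 1712 counts), 1871 ± 472 CPM in monocytes (n = 4, 445 counts) and 877 ± 383 CPM in astrocytes (n = 8, 1005 counts). The monocyte mean was thus 28.4% and the astrocyte mean 13.3% of the microglia mean. No microglia library fell below 4090 CPM, while monocyte libraries lay between 1305 and 2427 CPM and astrocyte libraries between 367 and 1596 CPM, so that microglia stood apart from both others and monocytes overlapped with astrocytes. These are bulk libraries, in which fewer cells of a type and less RNA per cell cannot be told apart. The 3 tables were normalized separately and hold different gene sets, so levels across cell types are described without a test. The sources used here do not say if equal replicate numbers in 2 cell types mark the same mouse. Over the 2606 genes that all 3 tables hold, the monocyte and astrocyte means became 29.8% and 15.7% of the microglia mean. Ttr alone averaged 208482 CPM in astrocytes, 34133 in microglia and 5339 in monocytes, which lowers other CPM values most in astrocytes. With Ttr also left out of the shared genes, the 9 genes averaged 8973 CPM in shXbp1 and 5663 CPM in shScrmbl microglia. In the same order they averaged 2427 and 1649 CPM in monocytes and 1522 and 1324 CPM in astrocytes.

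**Figure D1:**
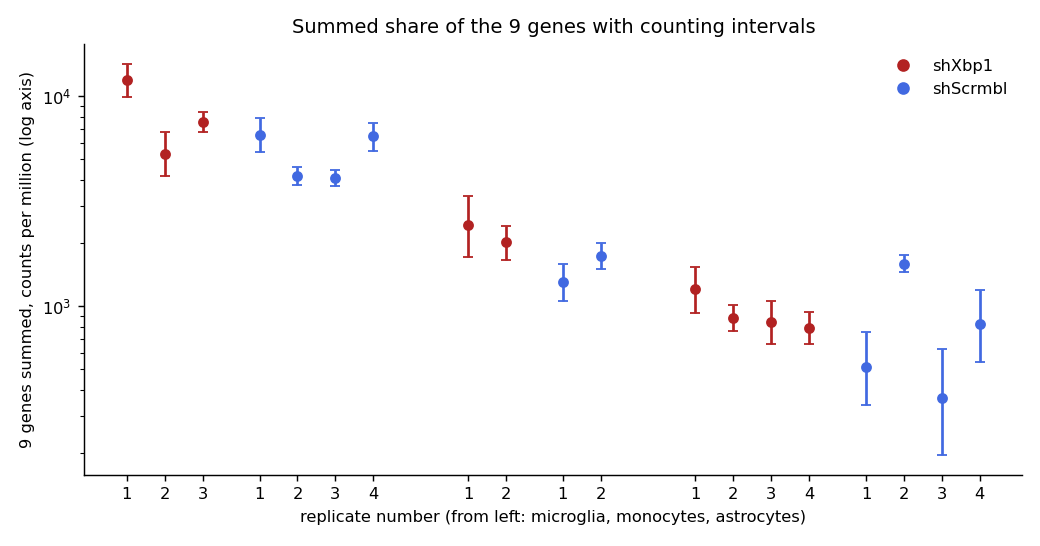
Summed level of the 9 genes in each of the 19 libraries, in CPM on a log axis, with exact 95% Poisson intervals that cover counting error only; shXbp1 libraries are red and shScrmbl libraries blue, and cell types run from microglia through monocytes to astrocytes. Microglia libraries lie between 4090 and 11953 CPM, monocytes between 1305 and 2427 CPM, and astrocytes between 367 and 1596 CPM.

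Each of the 9 genes had a higher mean in microglia than in monocytes, by 1.51-fold to 6.30-fold with a median of 3.92-fold, where 54.8% of all 2606 shared genes were higher and their median was 1.06-fold. Against astrocytes the folds ran from 4.79 to 12.3 with a median of 7.36, where 64% of all shared genes were higher and the median was 1.28. Library totals here include Ttr, which makes the folds over astrocytes larger than they would be without it. For 6 of the 9 the lowest microglia library lay above the highest monocyte library, the exceptions being P2ry12, Fcrls and Selplg, and 2.61% of all shared genes were separated in that way. For 8 of the 9 the lowest microglia library lay above the highest astrocyte library, with Fcrls as the exception and 8.1% of all shared genes so separated. Between monocytes and astrocytes only Selplg and Olfml3, 2 of the 9, had every monocyte library above every astrocyte library, against 13.3% of all shared genes.

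Among the receptors, Csf1r, which binds the growth factors CSF1 and IL-34 that microglia need to survive, and Cx3cr1, which binds the neuronal chemokine fractalkine, were the most abundant members in every cell type. Cx3cr1 averaged 1647 ± 580 CPM in microglia (SD, n = 7), 419.7 ± 97.9 CPM in monocytes (n = 4) and 175 ± 74.1 CPM in astrocytes (n = 8). Csf1r averaged 1518 ± 651, 542 ± 326 and 227 ± 141 CPM in microglia, monocytes and astrocytes. Cx3cr1 stood first in microglia and Csf1r first in monocytes and astrocytes, but in each type their ranges over libraries overlapped, so the order of these 2 was within the spread.

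P2ry12, the ADP receptor with which microglial processes sense injured cells, and Gpr34, a receptor for lysophosphatidylserine, showed the widest gaps between microglia and astrocytes. P2ry12 averaged 609.9 ± 333 CPM in microglia, 108 ± 70.8 in monocytes and 49.8 ± 46.6 in astrocytes, a microglia level 5.65-fold above monocytes and 12.3-fold above astrocytes. Gpr34 was the least abundant member in all 3 types, with 162 ± 78.1 CPM in microglia, 41.5 ± 22.0 in monocytes and 15.8 ± 15.6 in astrocytes. Its 40, 9 and 23 counts in the whole of each table leave its monocyte and astrocyte levels imprecise.

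Tmem119, a membrane protein used to tell microglia from infiltrating macrophages, was nearly as low in monocytes as in astrocytes. It averaged 483 ± 296 CPM in microglia, 76.6 ± 62.2 in monocytes and 68.2 ± 23.2 in astrocytes, and no counts were seen in 1 monocyte library of 15654 counts, which allows up to 192 CPM. Siglech, a sialic acid-binding lectin, behaved alike, with 607 ± 358, 135 ± 40.0 and 127 ± 43.3 CPM in microglia, monocytes and astrocytes. Its monocyte and astrocyte means differed by 1.06-fold, less than the spread between libraries. Fcrls, an Fc receptor-like scavenger protein of mouse microglia, varied widely within microglia, with an SD above its mean. Its microglia libraries ran from 75.1 to 1594 CPM around a mean of 477 ± 533, monocyte libraries from 63.9 to 159 CPM around 90.3 ± 45.9, and astrocyte libraries from 28.2 to 150.3 CPM around 64.9 ± 43.1.

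Selplg, which encodes the P-selectin ligand PSGL-1 that leukocytes use to roll on vessel walls, was the member least different between microglia and monocytes. It averaged 243 ± 94.8 CPM in microglia, 161 ± 72.6 in monocytes and 26.5 ± 12.9 in astrocytes, a microglia level 1.51-fold above monocytes with overlapping libraries. Monocyte Selplg stood 6.09-fold above the astrocyte mean, where the monocyte to astrocyte folds of the other 8 genes ran from 1.06 to 2.63. Olfml3, a secreted olfactomedin-like protein, averaged 834 ± 385 CPM in microglia, 297 ± 64.4 in monocytes and 124 ± 80.1 in astrocytes.

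**Figure D2:**
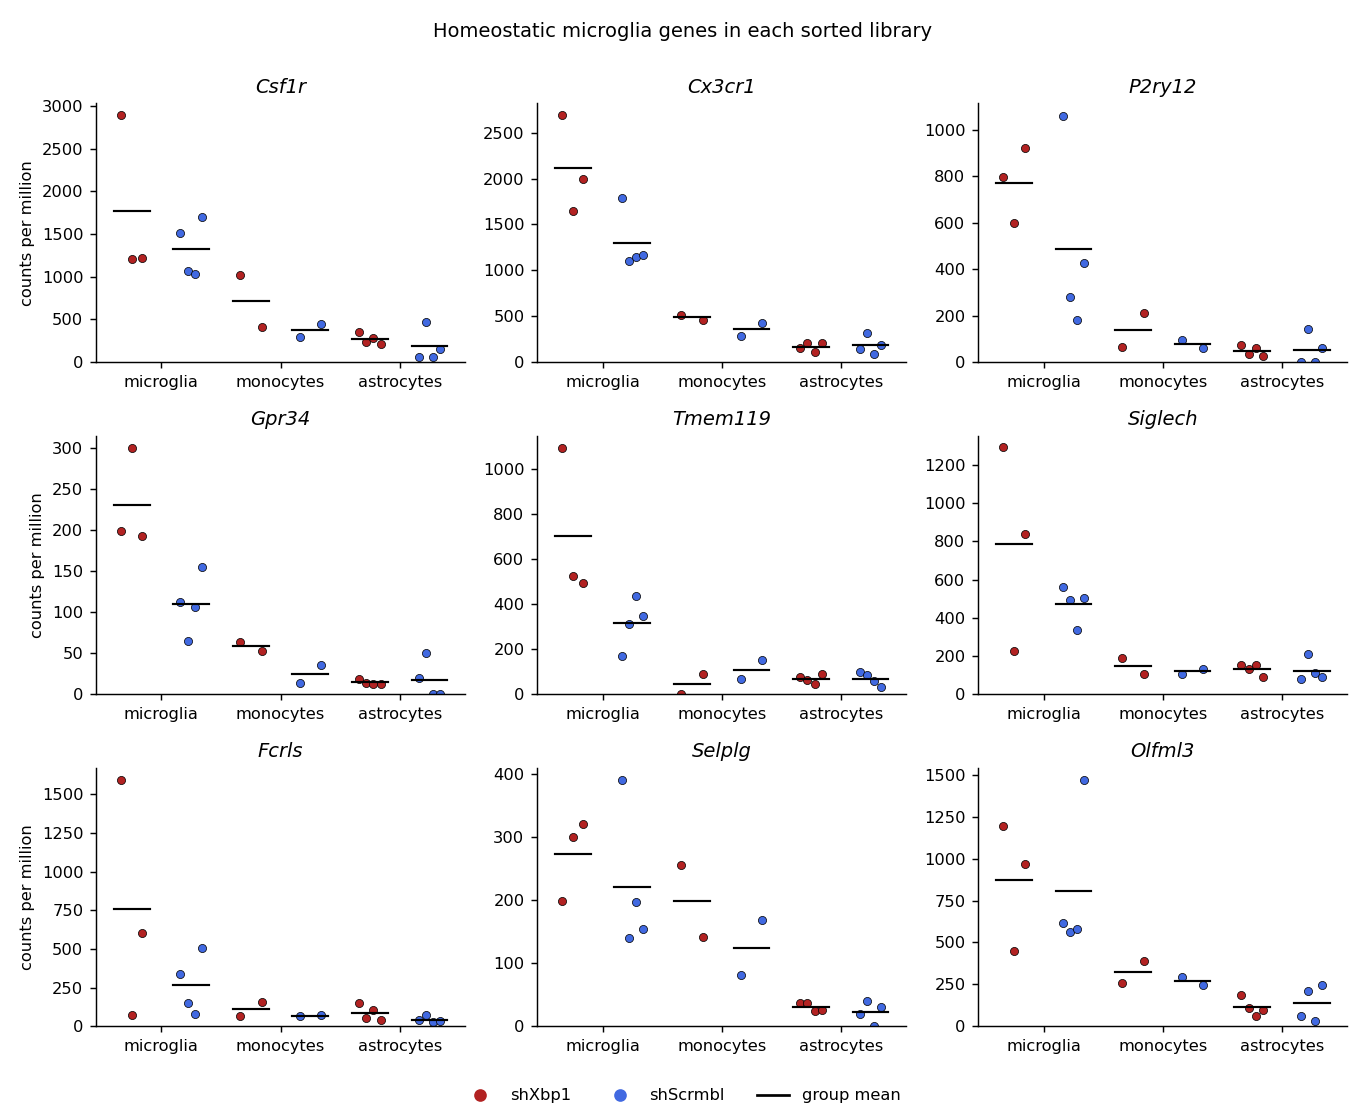
Level of each gene in CPM in every library, 1 panel per gene, with shXbp1 libraries in red to the left of shScrmbl libraries in blue within each cell type and a bar at the group mean. The microglia mean is the highest for each gene, P2ry12, Fcrls and Selplg have overlapping microglia and monocyte libraries, and Fcrls has overlapping microglia and astrocyte libraries.

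The proportions in which the 9 genes were counted were close in the 3 cell types, with exceptions that differed by more than counting error. Pooled over libraries, Selplg took 8.31% of the 9 genes' counts in monocytes (37 of 445, exact 95% binomial interval 5.92% to 11.3%), against 4.03% in microglia (3.15% to 5.07%) and 2.99% in astrocytes (2.02% to 4.23%). Siglech took 13.7% in astrocytes (11.7% to 16.0%), against 9.64% in microglia (8.28% to 11.1%) and 7.19% in monocytes. Cx3cr1 took 26.0% in microglia (23.9% to 28.1%) and 20.8% in astrocytes (18.3% to 23.4%), with intervals that did not overlap. Csf1r took 23.2% in microglia and 27.7% in astrocytes, with overlapping intervals. For P2ry12, Gpr34, Tmem119, Fcrls and Olfml3 the intervals of the 3 cell types overlapped, and P2ry12, for example, took 8.0% in microglia, 6.07% in monocytes and 6.57% in astrocytes. The intervals cover counting error only, and single libraries spread more widely, with Siglech between 11.1% and 30.8% in astrocyte libraries and between 4.23% and 11.9% in microglia libraries.

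**Figure D3:**
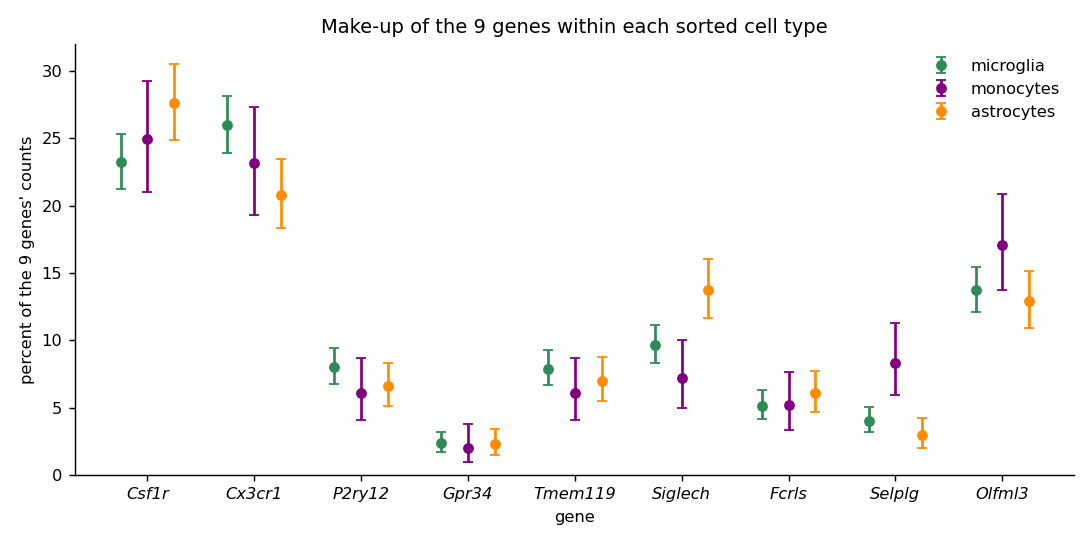
Share of each gene in the 9 genes' counts, in percent, pooled over the libraries of microglia (green), monocytes (purple) and astrocytes (orange), with exact 95% binomial intervals for counting error. Selplg is highest in monocytes at 8.31% and Siglech highest in astrocytes at 13.7%, while intervals of most other genes overlap.

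The level of the 9 genes in microglia libraries stood in nearly the opposite order to that of the summed monocyte and macrophage markers. Most of the pooled marker counts in microglia came from Lyz2, so their sum is not a measure of monocyte content. In shXbp1 microglia the 9 genes summed to 11953, 5330 and 7556 CPM in replicates 1 to 3, where the monocyte and macrophage markers were at 3984, 11711 and 4680 CPM. In shScrmbl microglia the 9 genes summed to 6539, 4172, 4090 and 6429 CPM in replicates 1 to 4, with monocyte markers at 6595, 24568, 17516 and 8869 CPM. The 3 libraries lowest in monocyte markers were thus the 3 highest in the 9 genes, and the 2 shScrmbl libraries highest in monocyte markers were the 2 lowest in the 9 genes. Those 2 shScrmbl libraries were also the deepest, at 92765 and 122002 counts, while shXbp1 replicate 1 was the shallowest, at 10039. The other shXbp1 libraries held 13321 and 46586 counts, and the other shScrmbl libraries 17892 and 25821. The part of depth in this order and in the comparison by virus was not tested. Both quantities are shares of the same library total, so a larger share of one leaves less for the other, and the part this played was not tested. Among astrocytes, shScrmbl replicate 2 was the deepest library and had both the highest level of the 9 genes, at 1596 CPM, and the highest level of monocyte markers, at 4109 CPM. In the other 7 astrocyte libraries the 9 genes lay between 367 and 1202 CPM and monocyte markers between 496 and 1946 CPM.

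**Figure D4:**
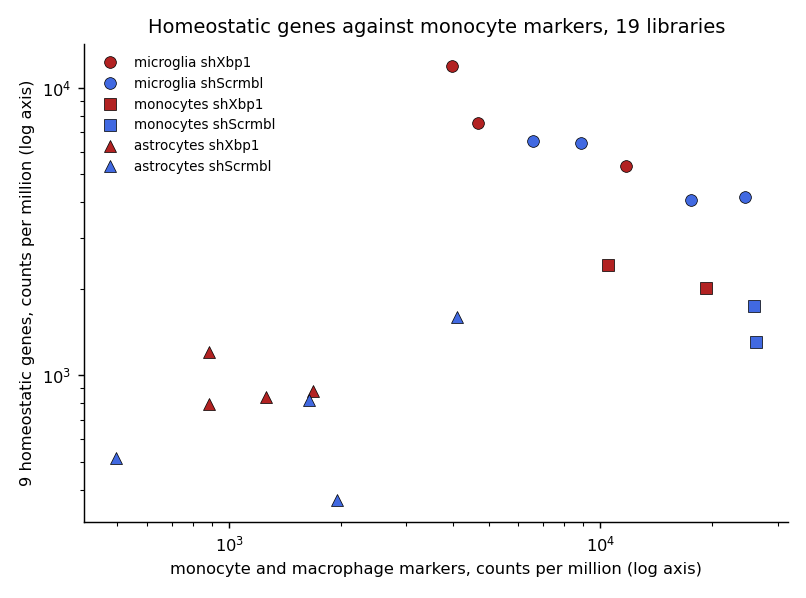
Summed level of the 9 genes against the summed level of monocyte and macrophage markers in the 19 libraries, both in CPM on log axes; circles are microglia, squares monocytes and triangles astrocytes, with shXbp1 in red and shScrmbl in blue. Microglia with few monocyte markers have the highest level of the 9 genes, from 11953 CPM in a library with 3984 CPM of monocyte markers to 4172 CPM in one with 24568 CPM.

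In microglia, mean levels of the homeostatic genes were higher in shXbp1 than in shScrmbl libraries, but no member passed a test over all genes. The summed level was 8280 ± 3371 CPM in shXbp1 microglia and 5308 ± 1360 CPM in shScrmbl microglia (SD, n = 3 and 4), a ratio of 1.56 that lay between 1.21 and 1.84 when 1 library was left out, and the libraries overlapped. On the log2(signal + 1) scale 8 of the 9 had a positive difference (limma; all but Olfml3), as had 34.5% of all 3066 genes tested, and the median was 0.50 for the 9 against -0.39 for all genes. By edgeR on the counts all 9 were positive, as were 44.6% of all genes, with medians of 0.58 and -0.09. The limma count depended on single libraries: 5 of 9 were positive without shXbp1 replicate 1 and 6 of 9 without shXbp1 replicate 3. At a Benjamini-Hochberg adjusted p under 0.05 over all genes, limma called 0 of the 9 and 0% of all genes (smallest adjusted p of a member 0.804), edgeR's quasi-likelihood test called 0 of the 9 and 0.391% of all genes, and DESeq2 called 0 of both. At an unadjusted p under 0.05 limma had 1 of the 9 and 5.41% of all genes, edgeR 2 and 5.48%, and DESeq2 0 and 2.35%. The groups overlapped in signal for each of the 9, where 2.32% of all genes were separated with shXbp1 higher and 4.92% with shXbp1 lower. In CPM, which leaves out the authors' scaling of each library, 2 of the 9 (Tmem119 and Gpr34) had every shXbp1 library above every shScrmbl library, as had 3.62% of all genes.

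The member nearest to a threshold in microglia was Tmem119 by limma and Fcrls by edgeR. Tmem119 had a signal of 836, 483 and 551 in shXbp1 microglia, against 156, 366, 495 and 360.0 in shScrmbl microglia. The groups overlapped in signal by 1 library on each side but not in CPM (494 to 1096 CPM with shXbp1 and 168 to 434 CPM with shScrmbl), and the limma log2 difference was 0.93 ± 0.45 (SE; limma adjusted p = 0.804; edgeR 0.69, adjusted p = 0.953). Fcrls had 1216, 69.0 and 670.4 in shXbp1 microglia, against 311, 177, 93.3 and 520.0 in shScrmbl microglia. The shXbp1 libraries thus held the highest values and also the lowest, which came from a single count, and the difference was 0.75 ± 1.12 by limma and 1.54 by edgeR (edgeR adjusted p = 0.111). Without shXbp1 replicate 1 the limma difference of Fcrls was -0.08.

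The purinergic, lysophospholipid and chemokine receptors came next after Tmem119 by limma p-value. In the edgeR test P2ry12 came next after Fcrls and ahead of Tmem119. P2ry12 had 608, 552 and 1029 in shXbp1 microglia, against 986, 328, 205 and 440.0 in shScrmbl microglia, where 1 shScrmbl library lay among the shXbp1 values (limma 0.76 ± 0.46 SE, adjusted p = 0.814; edgeR 0.89, adjusted p = 0.749). Gpr34 had 152, 276 and 215 in shXbp1 microglia, from 2 to 9 counts, against 104, 75.7, 121 and 160.0 in shScrmbl microglia, from 2 to 13 counts (limma 0.90 ± 0.56 SE, adjusted p = 0.814). Its groups overlapped in signal but not in CPM: 193 to 300.3 CPM with shXbp1 and 64.7 to 155 CPM with shScrmbl. Cx3cr1 had 2052, 1518 and 2227 in shXbp1 microglia, against 1661, 1287, 1298 and 1200.0 in shScrmbl microglia, again with 1 overlapping library on each side (limma 0.50 ± 0.35 SE, adjusted p = 0.814).

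The other 4 members differed by 0.22 or less in microglia by limma. Csf1r had 2204, 1104 and 1365 with shXbp1, against 1401, 1249, 1176 and 1760.0 with shScrmbl, a difference of 0.11 ± 0.36 (SE). Siglech had 988, 207 and 934 with shXbp1, against 519, 580.5, 383 and 520.0 with shScrmbl, a difference of 0.22 ± 0.47. Selplg and Olfml3 had differences of 0.20 ± 0.50 and -0.08 ± 0.42. By edgeR the differences were larger for Siglech, at 0.58, and Selplg, at 0.45, than by limma (edgeR adjusted p = 0.996 for both), and Siglech was then close to Cx3cr1, at 0.53. In Csf1r, Siglech, Selplg and Olfml3 the shXbp1 and shScrmbl ranges overlapped, and the 95% limma interval of Csf1r, from -0.62 to 0.85, still allows a change in either direction. Leaving out 1 library turned the sign of Csf1r, Fcrls, Siglech, Selplg or Olfml3 but not that of Tmem119, P2ry12, Cx3cr1 or Gpr34.

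Monocyte markers had a lower mean in shXbp1 than in shScrmbl microglia, with overlapping libraries. They summed to 6792 ± 4274 CPM with shXbp1 and 14387 ± 8258 CPM with shScrmbl (SD, n = 3 and 4), a ratio of 0.472 that ranged from 0.301 to 0.618 when 1 library was left out. Of 18 measured markers 2 had a positive and 16 a negative limma difference, and by edgeR all 18 were negative. Of all genes 34.5% were positive by limma and 44.6% by edgeR. Medians were -1.65 and -1.15 for the markers by limma and edgeR, beside -0.39 and -0.09 for all genes. EdgeR called 3 markers lower, and 8 of all 3066 genes. The 3 were Lyz2 (lysozyme), Cybb (a subunit of the phagocyte NADPH oxidase) and Hp (haptoglobin). These calls rest on single libraries: edgeR called 0 of all genes lower without shScrmbl replicate 2, without shScrmbl replicate 3 or without shXbp1 replicate 1. Cybb had a signal of 222 ± 63.7 in shXbp1 and 819 ± 597 in shScrmbl microglia (edgeR -1.95, adjusted p = 0.0164). Among the defining markers of monocytes, Ly6c2 had a signal of 23.0 ± 39.8 in shXbp1 and 53.7 ± 38.8 in shScrmbl microglia, from 1 and 16 counts (edgeR -2.02, adjusted p = 0.961). Ccr2 had 31.9 ± 55.3 in shXbp1 and 84.1 ± 65.2 in shScrmbl microglia, from 4 and 20 counts (edgeR -0.63, adjusted p = 0.996). Their part in the difference of the 9 genes was not tested.

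**Figure D5:**
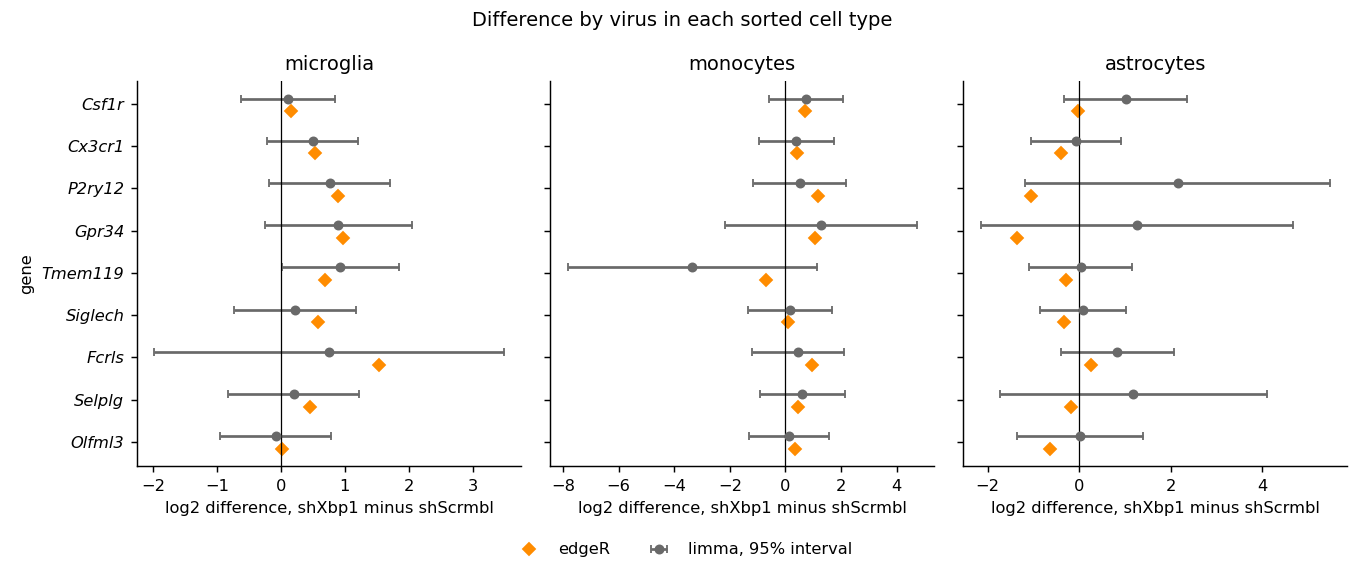
Log2 difference of each gene, shXbp1 minus shScrmbl, in microglia, monocytes and astrocytes; grey points are limma on log2(signal + 1) with 95% intervals and orange diamonds edgeR on counts. In microglia the points run from -0.08 to 0.93 by limma, in astrocytes limma and edgeR differ in sign for 7 of the 9 genes, and Tmem119 in monocytes stands at -3.35 with 1 shXbp1 library at 0.

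In sorted monocytes the 9 genes summed to 2427 and 2013 CPM with shXbp1, against 1305 and 1740 CPM with shScrmbl. The groups did not overlap, with a ratio of means of 1.46 (1.28 to 1.70 when 1 library was left out). With Csf1r, Cx3cr1 and Selplg set aside, since monocytes also make them, the other 6 genes summed to 639 and 1007 CPM with shXbp1, against 646 and 701 CPM with shScrmbl, and the groups overlapped. No member was called by limma, edgeR or DESeq2 (smallest adjusted p 0.887, 0.988 and 0.9996), where limma called 2.68% of all 3775 genes tested, edgeR 0.0265% and DESeq2 0%. At an unadjusted p under 0.05 no member passed in any of the 3, against 4.77%, 4.66% and 0.583% of all genes. By limma 8 of the 9 were positive, as were 34.2% of all genes, with medians of 0.45 and -0.42, and by edgeR 8 of the 9, as were 43.1% of all genes. Without shXbp1 replicate 2, 5 of the 9 were positive by limma. The shXbp1 libraries held 15654 and 56625 counts and the shScrmbl libraries 74340 and 112676, and 100 of the 101 limma calls were lower, so that shallower libraries and lower calls went together in this table.

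Gpr34 and Csf1r were the 2 members with both shXbp1 monocyte libraries above both shScrmbl libraries, as were 9.85% of all genes, while 25% of all genes were separated in the other direction. In CPM these were Gpr34 and Cx3cr1 in place of Gpr34 and Csf1r, against 11.2% of all genes. Csf1r had a signal of 809 and 482 in shXbp1 monocytes, against 307 and 455 in shScrmbl monocytes (limma 0.74 ± 0.66 SE, adjusted p = 0.887), and 1022 and 406 CPM with shXbp1 against 296 and 444 CPM with shScrmbl. Gpr34 had 50.6 and 62.8, from 1 and 3 counts, against 14.0 and 36.4, from 1 and 4 counts, so that its separation rests on single counts. Cx3cr1 had 404 and 544 in shXbp1 monocytes, against 293 and 437 in shScrmbl monocytes, and its groups overlapped in signal but not in CPM (511 and 459 CPM with shXbp1, 282 and 426 CPM with shScrmbl). Selplg had 202 and 167, against 83.8 and 173, also with overlap.

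Tmem119 was the one member with a negative difference in monocytes. It had 0 and 105 in shXbp1 monocytes, against 69.9 and 155 in shScrmbl monocytes (5 and 22 counts in all). The limma difference of -3.35 ± 2.20 (SE) came from the library at 0, the shallowest of the table, and edgeR on the counts gave -0.70 (adjusted p = 0.988). Without that library the limma difference was 0.01. P2ry12 had 50.6 and 251 in shXbp1 monocytes, against 97.8 and 63.7, and Fcrls 50.6 and 188, against 69.9 and 72.8, so that in both genes the shXbp1 libraries enclosed the shScrmbl libraries. Siglech and Olfml3 had limma differences of 0.16 ± 0.75 and 0.12 ± 0.70. Monocyte markers summed to 10477 and 19302 CPM with shXbp1, against 26312 and 25906 CPM with shScrmbl. Lyz2 gave 618 of the 1257 marker counts with shXbp1 and 2960 of the 4875 with shScrmbl. Of the 20 markers 8 were positive by limma and 9 by edgeR, with medians of -0.39 and -0.10 beside -0.42 and -0.17 for all genes. Ly6c2 had a signal of 252 in each group on average, and Plac8 had 829 ± 457 with shXbp1 and 385 ± 325 with shScrmbl (edgeR 1.19, adjusted p = 0.959). The part of these markers in the values of the 9 genes was not tested.

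In sorted astrocytes the summed level of the 9 genes did not separate the groups. It was 1202, 881, 843 and 792 CPM with shXbp1, against 516, 1596, 367 and 822 CPM with shScrmbl. The shXbp1 libraries lay close together within the wider range of the shScrmbl libraries, with means of 929 ± 186 and 825 ± 548 CPM (SD, n = 4 each). The ratio of means was 1.13 and ran from 0.950 without shScrmbl replicate 3 to 1.64 without shScrmbl replicate 2, so that 1 library decided its direction. No member was called by limma, edgeR or DESeq2, which called 0%, 0.0157% and 0% of all genes (6366 tested by limma and edgeR), and in none of the 9 genes were the groups free of overlap (2.37% of all genes were separated with shXbp1 higher and 0.785% with shXbp1 lower). At an unadjusted p under 0.05 no member passed in any of the 3, against 4.68%, 6.57% and 2.08% of all genes.

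The direction of the members in astrocytes depended on the scale and on single libraries. By limma 8 of the 9 were positive with a median of 0.84, where 68.2% of all genes were positive with a median of 0.42. Without shScrmbl replicate 3, 5 of the 9 were positive with a median of 0.040, and without shScrmbl replicate 2 all 9 with a median of 1.23. By edgeR on the counts 1 of the 9 (Fcrls) was positive with a median of -0.33, where 53.2% of all genes were positive with a median of 0.05. P2ry12 had a signal of 68.2, 38.5, 52.0 and 26.6 in shXbp1 astrocytes, against 0, 181, 0 and 55.2 in shScrmbl astrocytes. Both zeros came from shallow libraries, of 50392 and 35450 counts, which allow up to 59.5 and 84.6 CPM, and the difference was 2.15 ± 1.60 (SE) by limma and -1.05 by edgeR. Gpr34 had 17.1, 14.4, 10.4 and 13.3, against 20.1, 63.3, 0 and 0, with 1.27 ± 1.64 by limma and -1.36 by edgeR.

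Csf1r showed the same dependence on shScrmbl replicate 2, the deepest astrocyte library. It had 324, 245, 249.8 and 226 in shXbp1 astrocytes, against 60.2, 590.4, 53.3 and 138 in shScrmbl astrocytes (limma 1.02 ± 0.62 SE, adjusted p = 0.824; edgeR -0.017). The shXbp1 libraries lay above 3 of the shScrmbl libraries and below the fourth, and without that library the limma difference was 1.75. Cx3cr1 had 136, 221, 93.7 and 219, against 140.4, 409, 79.9 and 165, and its groups overlapped (limma -0.07 ± 0.47). Fcrls had 136, 57.7, 93.7 and 39.8, against 40.1, 92.8, 26.6 and 27.6, and was the member with a positive difference on both scales, at 0.84 ± 0.60 by limma and 0.27 by edgeR (adjusted p = 0.824 and 0.961).

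Tmem119 and Siglech had mean differences near 0 in astrocytes. Tmem119 had 68.2, 67.4, 41.6 and 93.0 with shXbp1, against 100.3, 109.6, 53.3 and 27.6 with shScrmbl, and Siglech had 136, 139.6, 135 and 93.0, against 80.2, 266, 107 and 82.7. Their limma differences were 0.03 ± 0.54 and 0.09 ± 0.46 (SE), with 95% intervals from -1.10 to 1.16 and from -0.86 to 1.03. Both intervals still allow a change of up to 0.86 on the log2 scale in either direction. Selplg, with 1 to 12 counts where it was seen, and Olfml3 had differences of 1.19 ± 1.41 and 0.02 ± 0.65.

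Other genes enriched in resting microglia were divided in direction in shXbp1 microglia. Of 30 such genes 28 were measured in microglia, 12 positive and 16 negative by limma with a median of -0.13 (edgeR 19 and 9, median 0.17). Of all genes 34.5% were positive by limma and 44.6% by edgeR, with medians of -0.39 and -0.09. None of the 28 was called, where limma called 0% and edgeR 0.391% of all genes. Summed, the 28 gave 30009 ± 4354 CPM with shXbp1 and 31571 ± 3831 CPM with shScrmbl (SD, n = 3 and 4), with overlapping libraries. The most abundant was Ctss, a lysosomal protease, with a signal of 9618 ± 2167 in shXbp1 and 15547 ± 3135 in shScrmbl microglia. Cst3, the cathepsin inhibitor cystatin C, had 4279.6 ± 1391 in shXbp1 and 3459 ± 1164 in shScrmbl microglia. The complement genes C1qb and C1qc had 2903 ± 679 and 1653 ± 640.0 with shXbp1, against 3681 ± 1582 and 2182 ± 625 with shScrmbl.

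The cell types also ranked those genes less steeply than the 9. Over the 20 of them that all 3 tables hold, the monocyte mean was 56.0% and the astrocyte mean 18.6% of the microglia mean, beside 29.8% and 15.7% for the 9 genes and 180% and 17.1% for 13 monocyte markers. In monocytes 21 were measured, 10 positive and 11 negative by limma, where 34.2% of all genes were positive. In astrocytes 26 were measured, of which 16 were positive by limma and 5 by edgeR, against 68.2% and 53.2% of all genes. None was called in either type. Of all genes limma called 2.68% in monocytes and 0% in astrocytes, and edgeR 0.0265% and 0.0157%. Sall1, a transcription factor of resident microglia, had a signal of 118 ± 76.9 in shXbp1 and 50.3 ± 25.0 in shScrmbl microglia, from 7 and 13 counts (edgeR 0.86, adjusted p = 0.996). In astrocytes it had 30.4 ± 37.0 with shXbp1 and 28.3 ± 24.1 with shScrmbl, from 11 and 16 counts.

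Ligands of the member receptors and factors known to maintain the homeostatic state were measured in part. Of 21 such genes 11 were measured in microglia, 4 positive and 7 negative by limma (edgeR 6 and 5). Of all microglia genes 34.5% were positive by limma and 44.6% by edgeR. None of these regulators was called in microglia, among 10 in monocytes or among 12 in astrocytes. Of all genes in these 3 types, in that order, limma called 0%, 2.68% and 0%, and edgeR 0.391%, 0.0265% and 0.0157%. Tyrobp, the signalling adaptor DAP12, had a signal of 2525 ± 1237 in shXbp1 and 3512 ± 1026 in shScrmbl microglia. Tgfbr1, a TGF-beta receptor, had 421 ± 131 in shXbp1 and 401 ± 103 in shScrmbl microglia. In astrocytes Csf1, a ligand of CSF1R, had 43.7 ± 9.36 with shXbp1 and 94.2 ± 84.0 with shScrmbl (edgeR -1.09, adjusted p = 0.761), and Tgfb2, a TGF-beta ligand, 171 ± 40.2 and 113 ± 83.7 (edgeR 0.66, adjusted p = 0.861). Il34, Cx3cl1 and Tgfb1 were not analysed here.

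Genes whose pattern over libraries was nearest to that of the summed members were found by the root-mean-square difference of centred log2 signal. Over the 7 microglia libraries, among 1283 genes with a count in each, these were Scoc, Ltc4s, Cd81, Ostf1 and Cst3, at 0.10 to 0.22, where the median over all candidates was 0.73. Ltc4s (leukotriene C4 synthase) and Cst3 belong to the list of other resting microglia genes. Over the 8 astrocyte libraries, among 3138 candidates with a median of 0.91, they were Ssh2, Ttc5, Slc7a2, Smtnl2 and Ccnl1, at 0.22 to 0.27. None of these 5 belongs to a list of myeloid genes used here, and many candidates were compared over few libraries.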

How the data were processed

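RNA of flow-sorted microglia, monocytes and astrocytes was counted by 3′ digital gene expression, per the labels. For each cell type the authors deposited a table of normalized signal. Per the submitters' processing notes, the build was mm10 and the tools included limma 3.34.1 and BWA 0.7.10, with no roles given. The counter, the annotation and the scaling are not given in the sources used here. Whole counts were recovered from the deposited signal, with 100% of values above 0 whole within 0.01 of a count. Each CPM value is a recovered count scaled to 1000000 counts of its library. The main test was limma 3.58.1 (trend and robust) on log2(signal + 1), shXbp1 minus shScrmbl, for genes that reached a signal of 1 in a number of libraries no smaller than the smaller group. All 9 members passed that filter. Adjusted p-values are Benjamini-Hochberg over all genes of a table, with a threshold of 0.05. For low genes such differences depend on the pseudocount of 1. Count tests with edgeR 4.0.16 (robust quasi-likelihood) and DESeq2 1.42.0 were alternatives, in R 4.3.3, and the fits were tested on simulated data. Sums and levels across cell types were described in Python 3.11.15 with exact intervals (scipy 1.17.1), which cover counting error only. A floor of 3 counts was used for a count of 0. Positions are from GENCODE M21. Microglia symbols are deposited in capitals and were matched ignoring case, and Chil3 and Plpp3 by older symbols. Named genes were the 9 members, Xbp1, cell type markers, up to 6 of the most abundant and any called genes of the other lists, and the 5 nearest genes in microglia and in astrocytes; a few genes under that rule are not reported here. Sall1, Csf1, Tgfb2 and the monocyte genes Ly6c2 and Ccr2 were named for their known roles, after their values were seen. The members and lists were chosen with earlier results of these data known.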

Additional observations from a re-analysis of the deposited data

Results flagged for a closer look

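In 4 of 30 groups of 4 libraries one library stood apart from the others by Dixon's criterion at 95%, which chance meets in about 1 of 20 groups. Csf1r had a signal of 590.4 in astrocyte shScrmbl replicate 2, where the other shScrmbl astrocyte libraries had 53.3 to 138, and Siglech had 266 in the same library, against 80.2 to 107 in the others. That library was the deepest of the table and the highest in monocyte markers. Siglech stood low in astrocyte shXbp1 replicate 4, at 93.0, where the other shXbp1 astrocyte libraries had 135 to 139.6. Olfml3 stood high in microglia shScrmbl replicate 4, at 1520.0, where the other shScrmbl microglia libraries had 571 to 663, and without that library its limma difference by virus was 0.24 in place of -0.08.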

How the results depend on the processing

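No member was called under any alternative but 1: without monocyte shXbp1 replicate 2, Tmem119 was called by limma at -6.72 (adjusted p = 0.000121), with a lone shXbp1 library at 0 that is assumed to vary like the others. Depth limits what can be said, since libraries held as few as 10039 counts and several members had under 10 counts in a library, and a p above the threshold does not show that levels were alike.

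Genes called over the whole table moved as follows. In astrocytes limma called 0, edgeR 1 with its own or with DESeq2 size factors, and edgeR 1 to 8 when 1 library was left out. In microglia limma called 0 (0 to 3 when 1 library was left out, 3 without shScrmbl replicate 1) and edgeR 12 with either size factor (0, 1 and 23 without shScrmbl replicates 3, 2 and 1, 16 without shScrmbl replicate 4, and 1, 11 and 5 without shXbp1 replicates 1, 2 and 3). In monocytes limma called 101 (0 to 1163, with 0 without either shScrmbl library, 486 without shXbp1 replicate 1 and 1163 without shXbp1 replicate 2), edgeR 1 with either size factor (0 without either shScrmbl library, 61 without shXbp1 replicate 1 and 29 without shXbp1 replicate 2), DESeq2 0, and limma with a pseudocount of 10 called 0. The replicate number as a block gave 0, 0 and 112 calls in astrocytes, microglia and monocytes. Same-numbered shXbp1 and shScrmbl libraries did not deviate together in astrocytes (correlations -0.00 to 0.06) or in microglia (-0.00 to 0.06). In monocytes the correlation was -0.08, but with 2 libraries per virus all pairs have the same size of correlation by construction. It therefore cannot decide on pairing there. The numbers were not taken to pair the samples of the 2 viruses, and no member call was lost or gained under the replicate block.

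The summed level without Csf1r, Cx3cr1 and Selplg was 4122 CPM in shXbp1 and 2461 CPM in shScrmbl microglia, 823 and 673 CPM in shXbp1 and shScrmbl monocytes and 461 and 438 CPM in shXbp1 and shScrmbl astrocytes. The summed level of all 9 genes over the genes of all 3 tables was 1165 CPM in shXbp1 and 975.4 CPM in shScrmbl astrocytes, and also without Ttr 1522 and 1324 CPM. These 2 alternatives, and CPM in place of signal for group overlap (2 microglia members separated in place of 0), were chosen after seeing the data. In astrocytes 7 members changed sign on the counts, with edgeR, edgeR with DESeq2 size factors and DESeq2 at -0.29, -0.30 and -0.26 for Tmem119, -1.05, -1.06 and -0.72 for P2ry12, -1.36, -1.37 and -1.06 for Gpr34, -0.33, -0.34 and -0.29 for Siglech, -0.17, -0.18 and -0.023 for Selplg and -0.63, -0.64 and -0.57 for Olfml3, and with the first 2 at -0.017 and -0.024 for Csf1r. Olfml3 was -0.027 there with a pseudocount of 10. In microglia Olfml3 was 0.015 by edgeR and 0.24 under the replicate block. That block leaves out shScrmbl replicate 4, which has no shXbp1 library of its number, and 0.24 was also the value without that library.

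Leaving out 1 library, astrocyte differences by limma ran from -0.36 to 0.29 for Tmem119, from -0.42 to 0.36 for Cx3cr1, from -0.094 to 0.48 for Siglech, from -0.057 to 1.84 for Selplg and from -0.60 to 0.50 for Olfml3. Microglia differences ran from -0.17 to 0.33 for Csf1r, from -0.076 to 1.98 for Fcrls, from -0.17 to 0.96 for Siglech, from -0.070 to 0.55 for Selplg and from -0.35 to 0.34 for Olfml3. Monocyte differences ran from -6.72 to 0.0083 for Tmem119, from -0.63 to 1.66 for P2ry12, from -0.49 to 1.39 for Fcrls and from -0.47 to 0.72 for Olfml3. Where a result moved and no cause is named, the cause was not tested.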

Other observations

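Markers of further cell types were counted in the same libraries as the 9 genes. Choroid plexus markers averaged 42462 ± 8937 CPM in shXbp1 and 31997 ± 24532 CPM in shScrmbl microglia. In monocytes, T, NK and B cell markers averaged 3990 ± 772 CPM with shXbp1 and 2530 ± 741 CPM with shScrmbl (n = 2 each, 7 genes measured), and neutrophil markers 312 ± 191 and 814 ± 84.8 CPM with shXbp1 and shScrmbl. Mmp8, a neutrophil collagenase, was listed at 0 in both shXbp1 monocyte libraries and had 18 counts in the shScrmbl libraries, and was called lower by limma (adjusted p = 0.0283) but not by edgeR (adjusted p = 0.922). The part of these cells in the values of the 9 genes was not tested.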
